A study of Mus musculus with 24 samples.

Results

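The genes described here are 8 interferon-induced genes whose transcripts peaked in the subjective night of the mouse suprachiasmatic nucleus (SCN), the hypothalamic clock that sets daily rhythms. They are Ifit1, Ifit2, Ifit3, Ifit3b, Ifi27, Ifi27l2a, Bst2 and Oas1a, 8 of 19938 genes that had a probe set of 1 symbol and of 13956 that passed the filter on dim genes. All 8 passed that filter. They were picked by symbol because earlier results on the same arrays showed their night peaks. Their 24-h rhythm is therefore given as a description: where a gene is said to be called in that fit, this describes the fit and supports nothing.

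The animals were C57/BL6 mice with no genetic change or drug named in the labels. They had lived for 3 weeks under 12 h of light and 12 h of darkness and were then moved to constant darkness. Age and sex were not given in the sources used here. Each of the 24 samples was 1 array with RNA pooled from the SCN of 3 mice, and circadian times (CT) ran from 18 to 64 in steps of 2 h. Arrays up to CT 40 form the first cycle and those from CT 42 on the second, 12 in each, and no time was repeated within a cycle. Circadian hours from 0 up to 12 are called subjective day and those from 12 up to 24 subjective night. Values are log2 intensities, which the authors normalised by RMA, and p-values measure only the spread of single pooled samples around a fitted curve. The number of arrays limits the precision.

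Type I interferons are cytokines that cells release when they sense viral nucleic acid. They bind the receptor IFNAR, and the kinases JAK1 and TYK2 then start a signal that reaches the interferon-stimulated response element (ISRE) near the induced genes. The induced proteins block viral replication, and many are also made at a low level without infection. IFIT proteins bind foreign RNA and restrain its translation, OAS enzymes make the oligoadenylates that activate RNase L, and BST2 (tetherin) holds budding virions at the cell surface. The IFI27 family are small proteins of intracellular membranes.

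Ifit1, Ifit2, Ifit3 and Ifit3b belong to the Ifit cluster of chromosome 19, in the order Ifit2, Ifit3, Ifit1bl1, Ifit3b, Ifit1bl2 and Ifit1. Ifi27l2a and Ifi27 neighbour each other on chromosome 12. RefSeq promoter windows of GRCm38.p6, from 250 bases before to 50 bases after a transcript start, were at hand for 6 of the 8 genes. Ifi27 and Ifi27l2a were not matched. The ISRE core, searched as GAAANNGAAA on both strands, occurred in 5 of those 6 genes. Counted by window, it occurred in 5 of their 7 windows and in 3.44% of all 32851 windows of this length. The stretches that hold it are shown because this was the motif, of the 4 searched, that most of these 6 genes held, and capitals mark the ISRE core.
Ifit1: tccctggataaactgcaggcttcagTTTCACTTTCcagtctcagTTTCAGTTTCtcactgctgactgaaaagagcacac
Ifit3: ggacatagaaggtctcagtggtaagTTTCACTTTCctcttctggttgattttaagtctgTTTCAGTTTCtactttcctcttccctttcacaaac
Ifit3b: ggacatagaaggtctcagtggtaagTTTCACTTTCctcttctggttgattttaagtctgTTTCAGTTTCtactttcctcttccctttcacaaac
Oas1a: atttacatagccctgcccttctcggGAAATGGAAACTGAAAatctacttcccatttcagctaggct
Bst2: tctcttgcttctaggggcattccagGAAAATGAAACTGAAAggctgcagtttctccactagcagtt
These lie at chr19:34640760-34640838, chr19:34583348-34583441 and chr19:34607744-34607837 on the plus strand, and at chr5:120907505-120907570 and chr8:71537562-71537627 on the minus strand.

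Each of the 5 stretches holds 2 cores. In Ifit1, Ifit3 and Ifit3b they read on the antisense strand, and the nearer core ends at -76, -113 and -145 from the transcript start. In Oas1a and Bst2 the 2 cores overlap on the sense strand, which reads like the transcript, and end at -5 and -115. The stretches of Ifit3 and Ifit3b were identical over all 94 bases, and their windows aligned over 274 columns with 259 identical bases, 1 mismatch and 14 gap positions (94.5% identical). The 2 windows of Ifit2 held no ISRE core, which says only that these letters are absent there. The GAS motif TTCNNNGAA occurred in 3 of the 6 genes (Ifit2, Oas1a and Bst2, where it overlaps the first ISRE core). By window it occurred in 3 of their 7 and in 8.30% of all windows. The clock motifs E-box (CACGTG, in 7.15% of windows) and D-box (TTATGTAA, in 0.938%) occurred in 0 of the 7 windows of these genes. A match describes letters and is not a measured binding site.

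All 8 genes were highest in the subjective night. The fitted peaks lay between 13.98 h (Oas1a) and 15.4 h (Ifit2), and amplitudes ran from 0.16 to 0.64 log2 units from mean to peak, with a median of 0.29 against 0.07 over all genes tested. All 8 passed an adjusted p of 0.05 in the limma fit of the 24-h rhythm, where 7.65% of the genes tested did (2.61% with a peak between 12 and 24 h and 1.23% with one between 13 and 17 h). The genes were chosen on this contrast, so nothing is read from that count. In whole-tissue RNA, fewer cells of a type and less RNA per cell cannot be told apart. The array at CT 38 was among the 5 highest for 8 of the 8 genes and the arrays at CT 36, CT 42 and CT 60 for 6 each. The array at CT 50 was among the 5 lowest for 8 genes, that at CT 28 for 7 and that at CT 26 for 6.

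**Figure D1:**
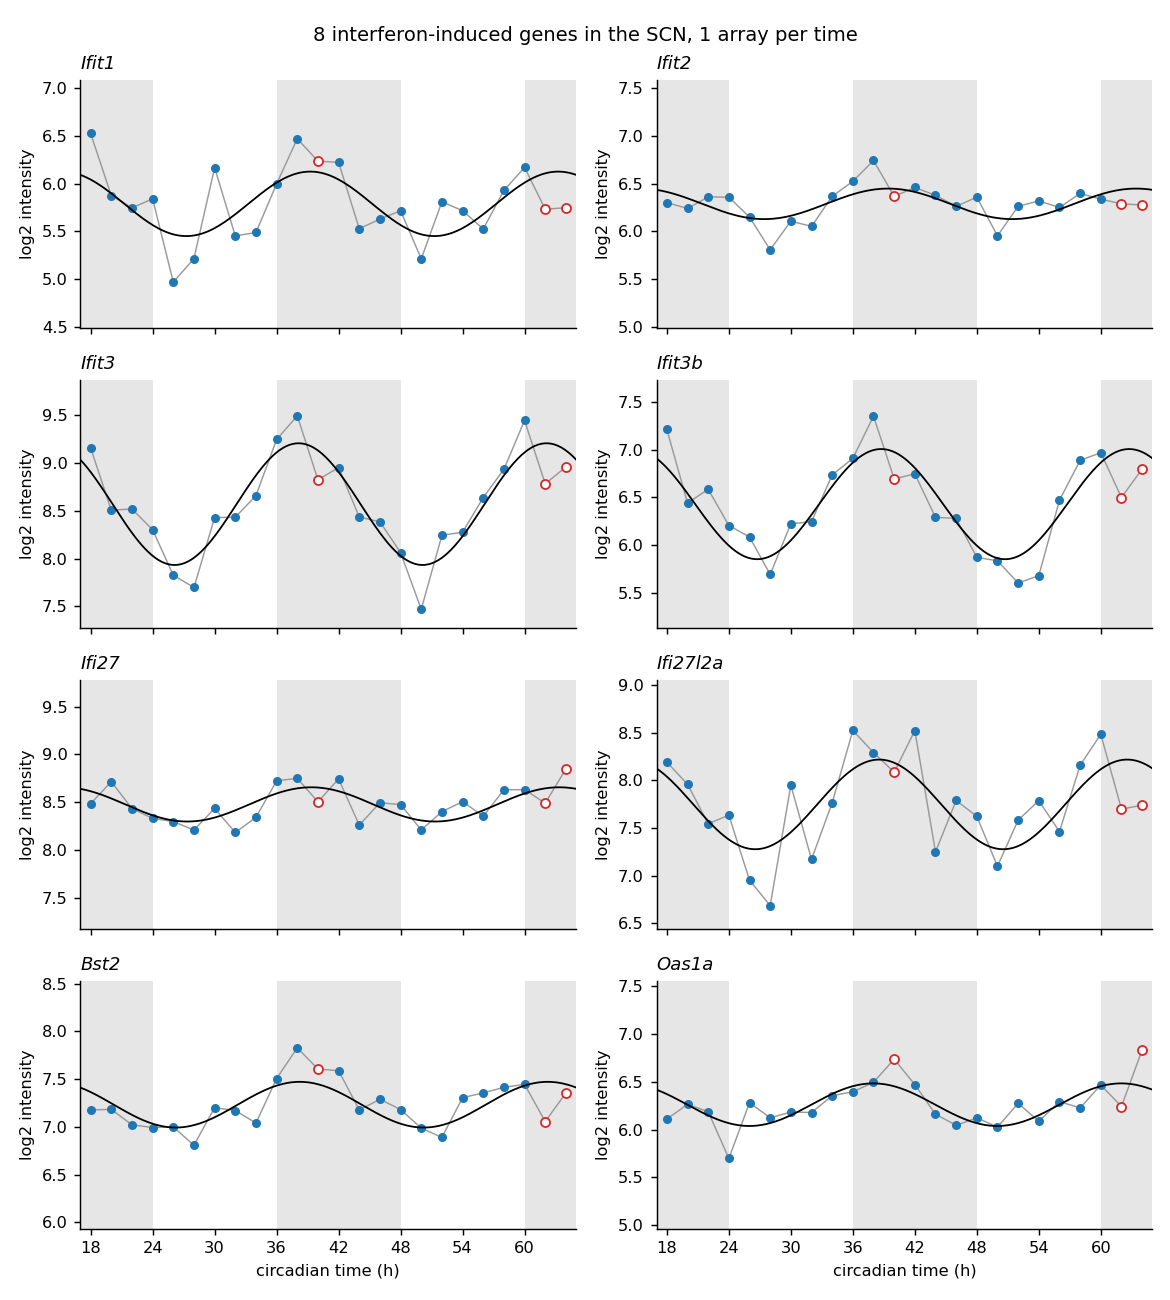
Log2 intensity of each of the 8 genes on the 24 arrays (points, 1 array each) against circadian time in hours, with the fitted 24-h cosine (black line). Grey marks subjective night, and open red points mark CT 40, CT 62 and CT 64, the arrays that had the narrowest spread of values. All vertical axes span the same log2 range, so that the larger waves of Ifit3, Ifit3b and Ifi27l2a, with amplitudes of 0.64, 0.58 and 0.47, can be seen beside the smaller ones.

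Ifit3 had the largest wave of the 8 and the second largest amplitude of all rhythmic genes called. Its log2 intensity in the first cycle ran from 7.70 at CT 28 through a median of 8.51 to 9.49 at CT 38. In the second cycle it ran from 7.47 at CT 50 through 8.54 to 9.45 at CT 60. The 12 night arrays lay between 8.38 and 9.49 and the 12 day arrays between 7.47 and 8.93. Thus the night and day ranges overlapped, with 6 night arrays above every day array and 7 day arrays below every night array. The fitted wave had a mean-to-peak size of 0.64 ± 0.06 (standard error), a peak at 14.1 ± 0.38 h and a 2.42-fold change from trough to peak.

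Ifit3b, a close copy of Ifit3, followed a similar course. It ran from 5.69 at CT 28 through a median of 6.51 to 7.35 at CT 38 in the first cycle. In the second it ran from 5.60 at CT 52 through 6.38 to 6.97 at CT 60. Both lows thus fell at circadian hour 4 and the highs at hours 14 and 12. Of the 12 day arrays 9 lay below every night array. Its amplitude was 0.58 ± 0.07, with a peak at 14.7 ± 0.44 h and a 2.23-fold change.

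Ifit1, which binds RNA with an uncapped or foreign cap end, had a mean of 5.79, not far above the filter at 5.52. Its first cycle ran from 4.97 at CT 26 through 5.86 to 6.52 at CT 18, and its second from 5.21 at CT 50 through 5.72 to 6.22 at CT 42. The array at CT 30, in the middle of the subjective day, stood high at 6.17 between 5.21 at CT 28 and 5.45 at CT 32. Night and day ranges overlapped, with 5 night arrays above every day array. Its wave measured 0.34 ± 0.08 with the peak at 15.3 ± 0.92 h (1.60-fold).

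Ifit2, which acts on viral translation and on apoptosis, had the smallest amplitude of the 8 (0.16 ± 0.04, peak at 15.4 ± 1.01 h, 1.25-fold). It ran from 5.81 at CT 28 through 6.33 to 6.74 at CT 38 in the first cycle, and from 5.95 at CT 50 through 6.30 to 6.46 at CT 42 in the second. Only 3 night arrays lay above every day array, so the night and day values of this gene overlapped more than those of Ifit3.

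Ifi27l2a, a small hydrophobic protein of the IFI27 family, had the third largest wave. Its first cycle ran from 6.69 at CT 28 through 7.86 to 8.52 at CT 36, and its second from 7.10 at CT 50 through 7.72 to 8.52 at CT 42. The day array at CT 30 again stood high at 7.95, between 6.69 at CT 28 and 7.17 at CT 32. The amplitude was 0.47 ± 0.09, the peak at 14.6 ± 0.77 h and the change 1.92-fold. Its neighbour Ifi27 had a smaller wave of 0.18 ± 0.04 with a peak at 15.4 ± 0.86 h. Ifi27 ran from 8.18 at CT 32 to 8.75 at CT 38 and from 8.21 at CT 50 to 8.85 at CT 64, with cycle medians of 8.43 and 8.49.

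Bst2 ran from 6.81 at CT 28 through 7.17 to 7.83 at CT 38 in the first cycle, and from 6.89 at CT 52 through 7.30 to 7.59 at CT 42 in the second. The wave measured 0.24 ± 0.05, peaking at 14.2 ± 0.79 h. Oas1a ran from 5.70 at CT 24 through 6.23 to 6.74 at CT 40, and from 6.03 at CT 50 through 6.23 to 6.83 at CT 64. That of Oas1a measured 0.22 ± 0.05, peaking at 13.98 ± 0.82 h. The high points of Oas1a thus fell on CT 40 and CT 64, while those of Ifit3, Ifit3b and Bst2 fell on CT 38 and on CT 60 or CT 42.

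The arrays at CT 40, CT 62 and CT 64 lie in the early to middle night. Their values had interquartile ranges of 2.48 to 2.67, against 2.72 to 2.90 on the other 21, and the mean of 1194 olfactory and vomeronasal receptor genes, called the array background here, was 0.16 to 0.34 above its series mean on them. Without these 3 arrays the amplitudes of 7 of the 8 genes were larger (Ifit3 0.75, Ifit3b 0.70, Ifi27l2a 0.60, Ifit1 0.42, Bst2 0.28, Ifit2 0.21 and Ifi27 0.19). That of Oas1a was smaller, at 0.18. With the array background as a covariate the amplitude of Oas1a was 0.14, and it was no longer called. The other 7 had amplitudes of 0.19 to 0.73 with that covariate and remained called.

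The calls of Ifit1 and Ifit2 depended on single arrays. The call of Ifit1 was lost without CT 28, CT 38 or CT 50. The call of Ifit2 failed in 13 of 24 leave-one-out fits, namely without CT 22, 28, 30, 32, 34, 36, 38, 42, 46, 50, 56, 58 or 60. Their amplitudes in these fits stayed between 0.29 and 0.39 for Ifit1 and between 0.13 and 0.18 for Ifit2. For each of the other 6 genes all 24 such fits kept the call.

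The choice of genes did not use the level between cycles, so that comparison could be tested. Second minus first, the differences ran from -0.20 (Ifit3b) to 0.05 (Ifi27) log2 units. With the 24-h wave in the model, limma called none of the 8 for this shift, nor any of all genes tested (0%, with 1216 at an unadjusted p under 0.05). Ifit3b came nearest, with a mean of 6.53 in the first cycle and 6.33 in the second, a difference of -0.20 (95% interval -0.38 to -0.03, unadjusted limma p = 0.0259, adjusted p = 0.509). It was higher in the second cycle in 4 of 12 pairs of arrays of the same circadian hour (exact two-sided sign-flip p = 0.0454, adjusted over the 8 genes 0.363). The 95% intervals of the other 7 included 0, the widest being that of Ifi27l2a from -0.24 to 0.31. Anterior pituitary markers were raised from CT 18 to CT 26, all in the first cycle, and their part in this comparison was not tested.

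At circadian hour 14 the cycles parted most for Ifit1, Ifit3, Ifit3b and Bst2. There the array at CT 62 was lower than that at CT 38 by 0.74, 0.71, 0.85 and 0.77 log2 units. CT 62 is 1 of the 3 arrays of narrow range, and its part in this difference was not tested.

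Fitted waves were smaller in the second cycle for 7 of the 8 genes. Amplitudes went from 0.49 to 0.21 for Ifit1 (standard error of either 0.11), from 0.24 to 0.08 for Ifit2 (0.06), from 0.62 to 0.34 for Ifi27l2a (0.13) and from 0.33 to 0.15 for Bst2 (0.07). They went from 0.66 to 0.63 for Ifit3, from 0.20 to 0.17 for Ifi27 and from 0.23 to 0.21 for Oas1a, and were 0.58 and 0.58 for Ifit3b. In the limma test of a change in rhythm between cycles none of the 8 passed (unadjusted p from 0.134 for Ifit1 to 0.856 for Oas1a, adjusted p = 0.9999 for each). Of all genes tested 0% passed, with 338 at an unadjusted p under 0.05. The size of the change, taken as the vector between the waves of both cycles, depended on arrays and covariates. For Bst2 it was 0.18, but 0.11 without CT 38, 0.10 without CT 62 and 0.04 without CT 40, CT 62 and CT 64. For Ifi27l2a it was 0.33, but 0.21 without those 3 arrays, 0.06 with the endothelial marker mean as a covariate and 0.07 with the fibroblast marker mean. For Ifit1 it was 0.33, but 0.49 without CT 30 and 0.16 and 0.11 with these covariates. For Ifit2 it was 0.16, but 0.10 without CT 28 and 0.08 with the fibroblast covariate. Fitted peaks lay between 13.6 and 16.04 h in the first cycle and between 13.5 and 15.2 h in the second.

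A second harmonic of 12 h was tested to see whether the courses departed from a single daily wave. None of the 8 passed (limma, beside 24-h terms; background 0.0358% of genes tested). The largest 12-h amplitudes were 0.14 ± 0.06 for Ifit3b (unadjusted p = 0.119, adjusted p = 0.325) and 0.11 ± 0.04 for Oas1a (unadjusted p = 0.0659, adjusted p = 0.253). Bst2 and Ifi27 had the smallest, at 0.01 ± 0.05 and 0.02 ± 0.04. A p above the threshold does not show that such a component is absent.

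The 8 courses rose and fell together, as their choice required, with pairwise Pearson correlations of 0.31 to 0.90 over the 24 arrays. What the choice did not fix is how they scattered around their own daily curves. After removal of the 24-h cosine, residuals of 23 of the 28 pairs still correlated positively, with a median r of 0.40. In a two-sided permutation test 10 of the 28 pairs passed at an adjusted p of 0.05 by Pearson's r, and 8 by Spearman's rho. Pairs of other genes were not put through this test, so the count is not read as particular to these genes. The test takes arrays as exchangeable, although they follow each other in time.

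**Figure D2:**
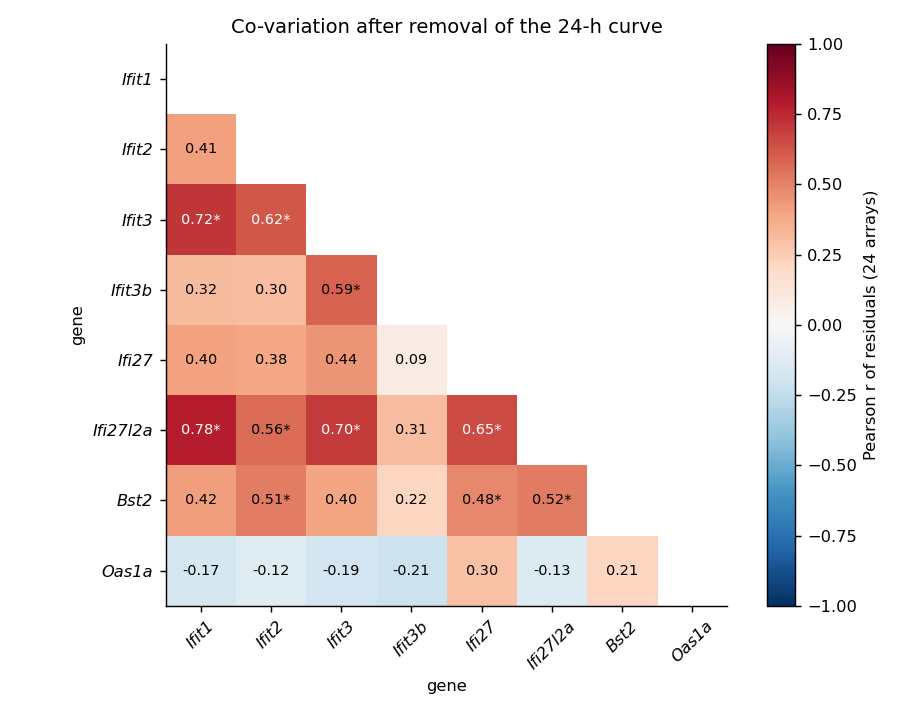
Pearson r between the residuals of each pair of genes after the 24-h cosine was removed, over 24 arrays. Stars mark the 10 of 28 pairs with an adjusted permutation p under 0.05. The highest value is 0.78 for Ifit1 with Ifi27l2a, and the row of Oas1a runs from -0.21 to 0.30 with no star.

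The tightest pair was Ifit1 with Ifi27l2a, which lie on different chromosomes. Their residuals had r = 0.78 (permutation p = 2e-05, adjusted p = 0.00056) and rho = 0.78 (p = 4e-05, adjusted p = 0.00098). Without CT 26 and CT 30, the arrays farthest from the median of Ifit1, r was 0.76. Ifit1 and Ifit3 had r = 0.72 (permutation p = 0.00012, adjusted p = 0.00168; rho = 0.74, adjusted p = 0.00098; r = 0.75 without those 2 arrays). Ifit3 and Ifi27l2a had r = 0.70 (permutation p = 0.00018, adjusted p = 0.00168; rho = 0.66, adjusted p = 0.00597; r = 0.69 without CT 50 and CT 62). Ifi27 and Ifi27l2a had r = 0.65 (permutation p = 0.00085, adjusted p = 0.00595; rho = 0.59, adjusted p = 0.0191; r = 0.53 without CT 32 and CT 44). With the fibroblast marker mean as a covariate that pair had r = 0.18 (permutation adjusted p = 0.602). Shared probes of Ifi27 and Ifi27l2a were not tested.

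The other pairs past the threshold by r were Ifit2 with Ifit3 (0.62), Ifi27l2a (0.56) and Bst2 (0.51), Ifit3 with Ifit3b (0.59), and Bst2 with Ifi27l2a (0.52) and Ifi27 (0.48). Adjusted permutation p-values of these 6 ran from 0.00711 to 0.0485. By rank 2 of them missed the threshold, with an adjusted permutation p of rho of 0.0830 for Ifi27 with Bst2 and of 0.100 for Ifit2 with Bst2. With the fibroblast covariate Ifit2 and Ifi27l2a had r = 0.21 (permutation adjusted p = 0.534). Oas1a was in none of the 10 pairs, with r between -0.21 and 0.30. Once the array background entered the model, Oas1a and Ifi27 passed (r = 0.52, permutation adjusted p = 0.0344), and r of Oas1a with the other 6 ran from -0.09 to 0.33. The residual of Oas1a had the sign of the mean of the other 7 on 12 of 24 arrays, against 22 of 24 for Ifit3 and 21 for Ifi27l2a.

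Single arrays carried much of this scatter. At CT 38 the residuals of 8 of 8 genes were above 0, with a mean of 0.23, and at CT 30 those of 7 were, with a mean of 0.21. At CT 32, CT 50 and CT 62 all 8 lay below 0, with means of -0.18, -0.15 and -0.35. At CT 28 and CT 44, 1 gene each lay above 0, and the means were -0.24 and -0.22. Without CT 40, CT 62 and CT 64 5 of the 28 pairs passed, and these included Ifit1 with Ifi27l2a (r = 0.75) and with Ifit3 (0.74), and Ifi27 with Ifi27l2a (0.80).

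When each gene was set against the mean of the other 7 residuals, Ifi27l2a ranked 2nd and Ifit3 4th among 13949 genes in that correlation, at r = 0.79 and 0.79. Ifit1 ranked 78th (0.70), Ifi27 165th (0.60), Ifit2 230th (0.59), Bst2 255th (0.58), Ifit3b 1170th (0.37) and Oas1a 10122nd (-0.11). The median over the ranked genes was between 0.01 and 0.05. These ranks are a description over 24 shared arrays.

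Ifit3 and Ifit3b raise the question whether their probe sets measured separate transcripts. Probe sequences were not used here, so shared probes were not tested directly. The platform annotation gave Ifit3 4 accessions and Ifit3b 2, with 0 in common. Within arrays, Ifit3 minus Ifit3b had a median of 2.14 log2 units and an SD of 0.23 (n = 24), from 1.63 at CT 50 to 2.64 at CT 52. That offset is between probe sets and is not a ratio of transcripts. A 24-h curve fitted to the difference had a size of 0.12 ± 0.07 and peaked at 10.5 h (permutation p = 0.236), so no separate rhythm of the 2 genes was detectable.

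**Figure D3:**
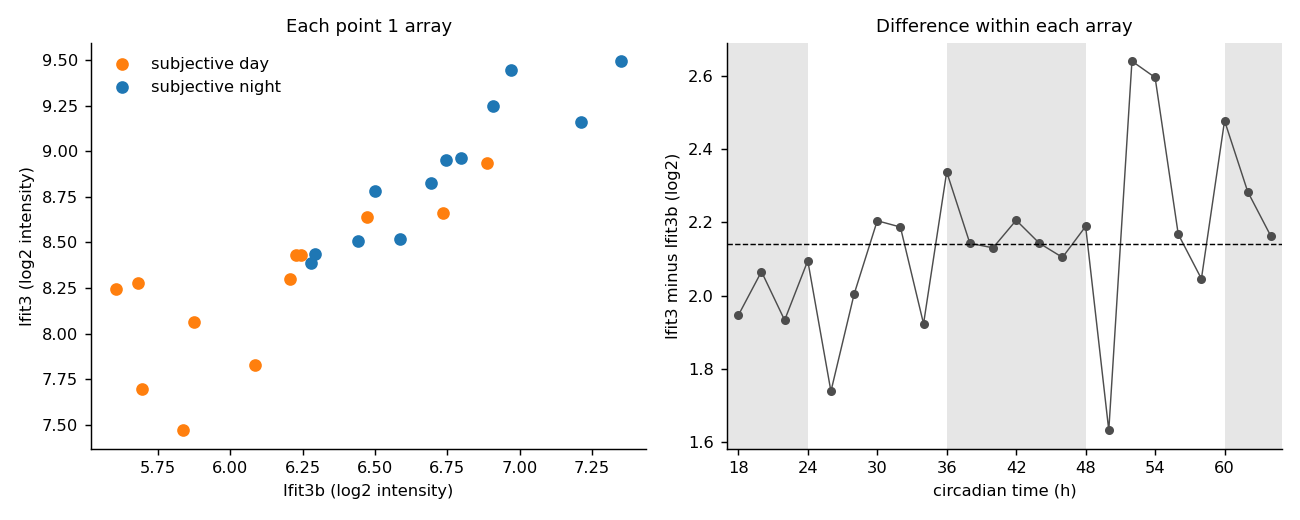
Left, log2 intensity of Ifit3 against Ifit3b, 1 point per array, for subjective day (orange) and night (blue). Right, Ifit3 minus Ifit3b on each array against circadian time in hours, with the series mean (dashed) and subjective night in grey. The difference ranges from 1.63 at CT 50 to 2.64 at CT 52.

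Their raw courses had the highest correlation of all 28 pairs (0.90), as both were chosen for the same wave. Their residuals correlated at r = 0.59 (permutation p = 0.00241, adjusted p = 0.0112; rho = 0.61, adjusted p = 0.0143; r = 0.56 without CT 50 and CT 62). Without CT 40, CT 62 and CT 64 this pair had r = 0.35 and did not pass (permutation adjusted p = 0.258). With the array background covariate it had r = 0.48 (permutation adjusted p = 0.0479). The residual of Ifit3 followed Ifit1 (0.72), Ifi27l2a (0.70) and Ifit2 (0.62), whereas that of Ifit3b had r of 0.32, 0.31 and 0.30 with these genes. With the fibroblast marker covariate r was 0.58, 0.48 and 0.43 for Ifit3 and 0.38, 0.50 and 0.36 for Ifit3b. With the array background covariate it was 0.73, 0.64 and 0.59 for Ifit3 and 0.28, 0.16 and 0.22 for Ifit3b. The difference between these correlations was not tested. For Oas1a a further probe set, annotated to both Oas1a and Oas1g and sharing 2 accessions, was dimmer (mean 5.33). It had a small wave (0.07, peaking at 18.1 h), was not called among all probe sets (limma adjusted p = 0.309) and correlated with the Oas1a probe set at r = 0.33 over 24 arrays.

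Other genes of the interferon pathway were taken from lists. These held 136 genes besides the 8, of which 112 had a probe set of 1 symbol and 72 passed the filter. Of the 72, 3 were called for the 24-h rhythm (4.17%, against 7.65% of all genes tested), all with night peaks. Their median amplitude was 0.07, the same as over all genes tested. Fitted peaks between 12 and 24 h were found for 52 of the 72 (72.2%), against 44.6% of all genes tested, a description over genes that share the same arrays. Of the 82 array-background genes that passed the filter, 65 also had such peaks. The share is therefore not read as particular to the interferon pathway. None of the 72 was called for the shift between cycles, the change in rhythm or the 12-h component.

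**Figure D4:**
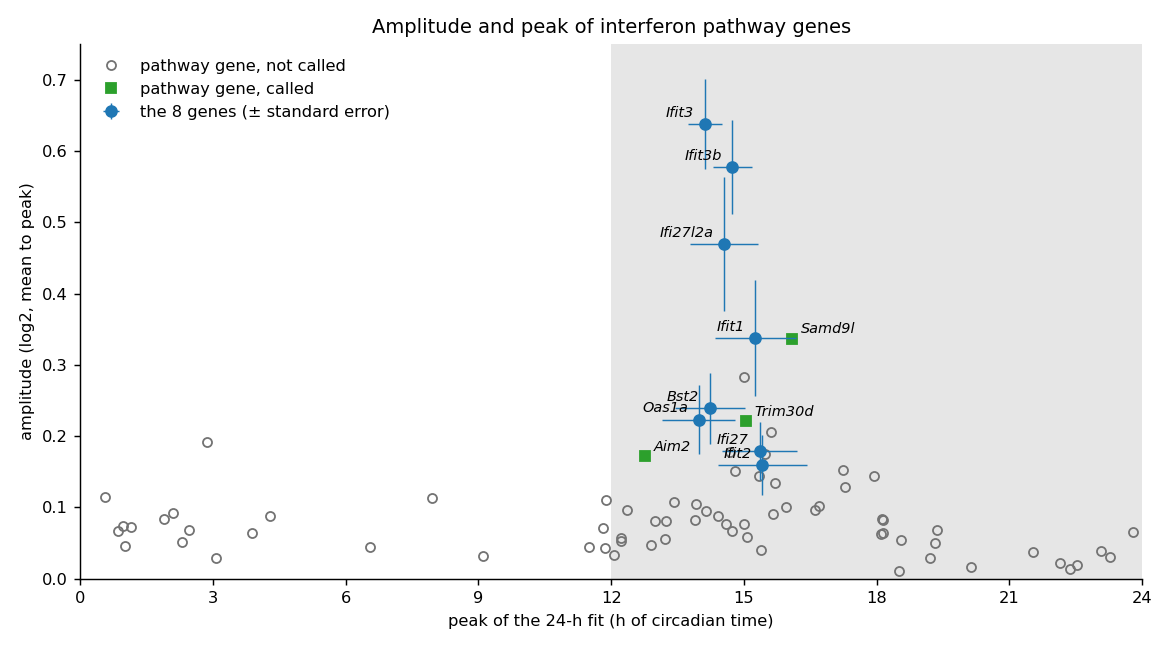
Amplitude (log2, mean to peak) against fitted peak in hours of circadian time for the 8 genes (blue, ± standard error of each), the 3 called genes of the pathway lists (green squares) and the 69 pathway genes not called (open circles). Grey marks subjective night. Ifit3, Ifit3b and Ifi27l2a lie above every pathway gene.

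Of 8 tested interferon ligands 0 were called. The smallest p-values were those of Ifng, the type II interferon, at an amplitude of 0.13 ± 0.05 (limma adjusted p = 0.191), Ifna5 (0.09 ± 0.04, adjusted p = 0.297) and Ifna9 (0.10 ± 0.05, adjusted p = 0.329). Their highest arrays were CT 40 for Ifng, CT 64 for Ifna5 and CT 62 for Ifna9, the 3 arrays of narrow range. Without these arrays the amplitude of Ifng was 0.07 (limma adjusted p = 0.539). With the fibroblast marker covariate it was 0.17, and Ifng was called (limma adjusted p = 0.0459). Of 5 tested receptors 0 were called, and Ifnar1, a chain of the type I receptor, was nearly flat (0.02 ± 0.03, adjusted p = 0.906). Il10rb, shared with type III interferon, had 0.09 ± 0.03 (adjusted p = 0.174), and Ifngr2 0.05 ± 0.05 (adjusted p = 0.735).

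Of 9 tested signalling genes 0 were called, with Jak1 at 0.07 ± 0.03, Stat3 at 0.06 ± 0.03 and Irf9, which binds the ISRE, at 0.07 ± 0.04 (limma adjusted p = 0.295, 0.333 and 0.426). Of 5 interferon regulatory factors 0 were called, with Irf8 at 0.10 ± 0.04, Irf1 at 0.09 ± 0.03 and Irf3 at 0.08 ± 0.04 (adjusted p = 0.151, 0.164 and 0.242). The brakes of the pathway had 0 of 6 called, with Usp18, which strips ISG15 and blocks the receptor, at 0.14 ± 0.06 (adjusted p = 0.190), Trim30a at 0.11 ± 0.05 (0.2299) and Pias1 at 0.08 ± 0.04 (0.231). In these 5 lists limma gave 0, 1, 0, 2 and 0 genes at an unadjusted p under 0.05, against 3835 of all 13956 genes tested.

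Of 8 nucleic acid sensors 1 was called. Aim2, a sensor of cytosolic DNA, ran from 6.55 at CT 54 through a median of 6.92 to 7.27 at CT 36, a wave of 0.17 ± 0.04 that peaked at 12.8 h (limma adjusted p = 0.0245). Its call was lost in 2 leave-one-out fits of 24 (adjusted p up to 0.0570) and once the array background entered the fit (0.16, limma adjusted p = 0.109).

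Of 31 other interferon-induced genes 2 were called, and 11 had an unadjusted limma p under 0.05. Of all 13956 genes tested, 3835 had such a p in this fit, so the 11 are not read as particular to this list. Samd9l, an antiviral and growth-restraining protein, ran from 5.89 at CT 50 through 6.76 to 7.35 at CT 60, a wave of 0.34 ± 0.08 that peaked at 16.1 h (adjusted p = 0.0227). Trim30d ran from 5.36 at CT 26 through 6.07 to 6.42 at CT 38 (0.22 ± 0.06, peak at 15.04 h, adjusted p = 0.0357), and lost its call in 8 of the 24 fits without 1 array (adjusted p up to 0.0742). Both were called without CT 40, CT 62 and CT 64 (adjusted p = 0.00536 and 0.0331). Fitted peaks of 25 of the 31 lay between 12 and 24 h, beside 65 of the 82 tested array-background genes. The mean of all 56 measured genes of this list, those below the filter included, had r = 0.88 with the mean of the 8 genes over 24 arrays. Its amplitude was 0.07, against 0.35 for the mean of the 8. A single gene outside these lists, Ccn2, had r = 0.87, so this r is not read as particular to the pathway.

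Markers of other cells were set beside these courses, since the arrays measured whole tissue. All 9 markers of the SCN passed the filter, with means from 6.59 to 10.97. The mean of the 8 meningeal and perivascular fibroblast markers moved with the 8 genes (r = 0.61 over 24 arrays). It ranged from 6.74 to 7.26 on night arrays and from 6.32 to 7.27 on day arrays, with a fitted peak at 16.5 h and an amplitude of 0.14. None of its 7 tested members was called (limma; 2 at an unadjusted p under 0.05). The unadjusted counts of the marker lists stand beside 3835 of all 13956 genes tested.

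**Figure D5:**
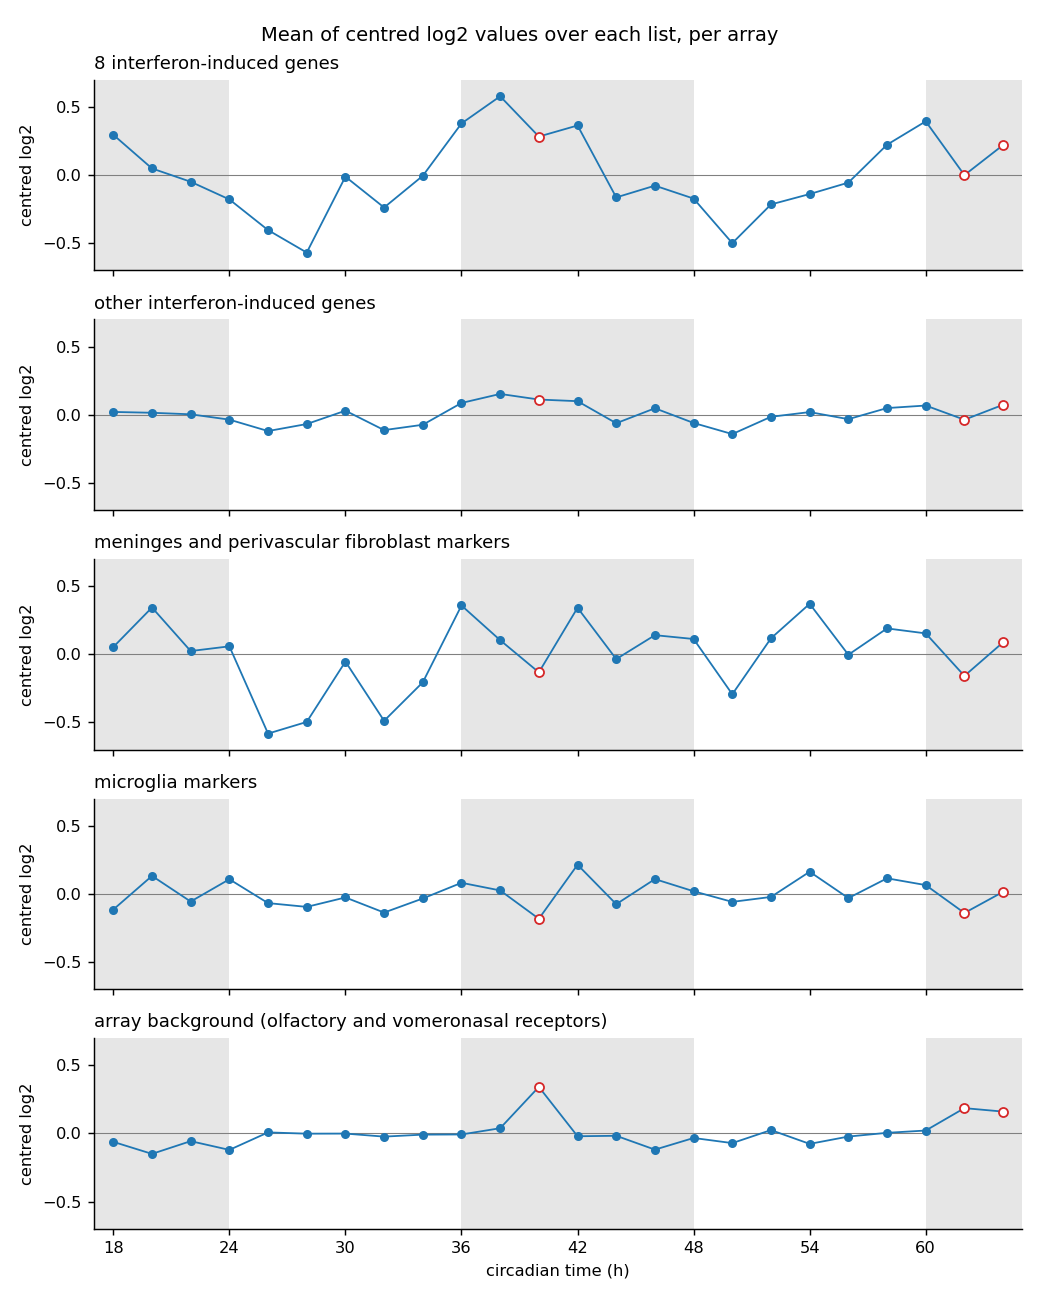
Mean of centred log2 values on each array against circadian time in hours, for the 8 genes, the other interferon-induced genes, the meninges and perivascular fibroblast markers, the microglia markers and the array background. Each list mean runs over all measured genes of the list, also those below the filter. Grey marks subjective night and open red points the arrays at CT 40, CT 62 and CT 64. The mean of the 8 genes is highest at CT 38 (0.58) and lowest at CT 28 (-0.57), and the fibroblast markers are also low at CT 26, CT 28, CT 32 and CT 50.

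With the mean of the fibroblast markers as a covariate, a setting chosen after the data were seen, amplitudes were 0.58 for Ifit3, 0.58 for Ifit3b, 0.34 for Ifi27l2a, 0.25 for Ifit1, 0.23 for Oas1a, 0.20 for Bst2, 0.12 for Ifi27 and 0.11 for Ifit2. Ifit1 and Ifit2 were then not called. Of the 28 residual pairs 4 passed in that setting: Ifit3 with Ifit3b (r = 0.72), Ifit1 with Ifi27l2a (0.68) and with Ifit3 (0.58), and Ifi27 with Oas1a (0.59). Trim30d also lost its call (amplitude 0.19, limma adjusted p = 0.0571), whereas Samd9l kept it (0.21, adjusted p = 0.0340).

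Microglia markers had r = 0.30 with the mean of the 8 genes. Their mean lay between 6.85 and 7.24 by night and between 6.89 and 7.19 by day, and 0 of 9 were called (limma; 1 at an unadjusted p under 0.05). With it as a covariate the amplitudes were 0.64 for Ifit3, 0.58 for Ifit3b, 0.47 for Ifi27l2a and 0.34 for Ifit1. Endothelial markers had r = 0.26 with the mean of the 8 genes, and 1 of 9 was called (Cldn5, a tight junction gene, with a peak at 23.2 h). Blood markers had r = -0.20 with 0 of 5 called (2 unadjusted). The array background had r = 0.30. Oligodendrocyte markers had r = 0.50, with a list mean of 8.57 to 9.72 by night and 8.77 to 9.71 by day, a fitted peak at 13.7 h, an amplitude of 0.11 and 0 of 6 called (limma; 1 unadjusted). Their centred mean was lowest at CT 40 (-0.72), an array of narrow range, where the mean of the 8 genes was 0.28. They were not used as a covariate, so movement with the 8 genes is not read as particular to the fibroblast markers. The SCN markers had r = -0.51, with a list mean of 7.72 to 8.58 by night and 8.22 to 8.74 by day, and 4 of 9 were called, all with day peaks. Their list mean had a 24-h wave of its own (amplitude 0.26, peak at 4.13 h), so this r is not read as SCN content. Astrocyte, ependymal and anterior pituitary markers had r of 0.27, -0.26 and -0.09, with 0 of 6, 0 of 6 and 0 of 4 called (2, 0 and 2 unadjusted). The anterior pituitary mean was 0.50 to 2.49 above its series mean on the arrays from CT 18 to CT 26, all in the first cycle. On every later array it lay between -0.64 and 0.37. The part of those early arrays in the comparisons between cycles was not tested. The part of these lists in the courses of the 8 genes was not tested, beyond the covariates named.

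Over all 13956 genes, the course most like the mean of the 8 was that of Ccn2, a matrix-associated growth factor (r = 0.87 over 24 arrays). S1pr5, a sphingosine phosphate receptor (0.86), Gng8, a G protein subunit (0.86), Sptssa, a subunit of the enzyme that starts sphingolipid synthesis (0.85), and Bicc1, an RNA-binding protein (0.85), came next. Taf13 (0.83), Ahnak (0.82), Bace2 (0.82), Smco3 (0.82) and the glucocorticoid target Tsc22d3 (0.82) completed the 10 highest. Their fitted peaks lay between 13.5 h (Gng8) and 16.2 h (Bace2). None of the 10 was in the interferon lists.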

How the data were processed

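RNA of 24 pooled SCN samples was hybridised to 1 array each. The deposited values are log2 intensities of probe sets, which the authors normalised with RMA 1.3.1.187 in Affymetrix Expression Console, per the submitters' processing notes. Background settings were not given in the sources used here, nor was a genome build. The platform annotation listed 23410 of the 35556 probe sets, 21789 with 1 gene symbol and 1621 with several. A gene took its probe set of highest mean, and genes below the 30th percentile of means (log2 5.52) were left out.

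Arrays were grouped by cycle. Cosine and sine terms of 24 h were fitted with limma 3.58.1 (lmFit, eBayes) in R 4.3.3 across all 13956 genes, with Benjamini-Hochberg adjustment at 0.05 and 21 residual degrees of freedom. The cycle term, its interaction with the 24-h terms, and 12-h terms were tested beside them. Residual correlations and the Ifit3 minus Ifit3b amplitude used 100000 permutations (NumPy 2.4.6, SciPy 1.17.1). Tests of a direction were two-sided. The fits were also run on simulated data with independent noise for each gene and array, which lack the scatter that genes share here.

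The members, lists and tests were chosen with earlier results of these data known. Named were the 8 genes, called genes of the pathway lists or else the 3 with the smallest p per list, and the 10 (values) or 5 (residuals) genes most like the members' mean. Cldn5 was named after its value was seen. Alternatives covered the filter, probe sets, normalisation, array weights, the prior, covariates and arrays left out.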

Additional observations from a re-analysis of the deposited data

How the results depend on the processing

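Counts of the 8 genes called in each comparison, of residual pairs past the threshold and the Ifit3 minus Ifit3b amplitude kept their side in all settings but 3, and 6 to 8 of the 8 were called for the 24-h rhythm when single arrays were left out. With the filter at the 50th percentile, 4 of the 8 genes were called for the 24-h rhythm, since the other 4 were no longer tested. Residual pairs past the threshold fell from 10 to 5 without CT 40, CT 62 and CT 64, and to 4 with the fibroblast marker covariate. Without those 3 arrays fewer arrays remain, and r of the pairs lost was also lower. It went from 0.59 to 0.35 for Ifit3 with Ifit3b and from 0.51 to 0.48 for Ifit2 with Bst2. Among the pairs kept, Ifi27 with Ifi27l2a went from 0.65 to 0.80. Which of these lowered the count was not tested. Adjusted p of the 8 genes over all settings ran from 0.199 to 0.9995 for the cycle shift, from 0.868 to 0.99999 for the change in rhythm and from 0.149 to 0.999 for the 12-h component.

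The sign of the cycle shift, not called in any setting, turned with the microglia covariate for Ifit2 (-0.0299), Ifi27 (-0.00933), Ifi27l2a (-0.117) and Bst2 (-0.00911). It also turned with the fibroblast marker covariate for these genes (-0.0501, -0.019, -0.1799 and -0.0132). When single arrays were left out, it ranged from -0.0179 to 0.0450 for Ifit2, from -0.0782 to 0.00178 for Ifit3, from -0.0239 to 0.0950 for Ifi27l2a and from -0.0169 to 0.0495 for Oas1a. The cause was not tested. The 24-h call of Ifit2 was also lost with no filter, all probe sets, quantile normalisation and median centring, and that of Ifit1 with all probe sets. Of all genes, limma called 1067 for the 24-h rhythm, 534 with the array background covariate, 679 without the 3 arrays, 1722 with the microglia and 2011 with the fibroblast covariate, and 704 to 1440 without 1 array. The difference between Ifit3 and Ifit3b had amplitudes of 0.10 to 0.15 when single arrays were left out (permutation p from 0.0969 to 0.377). Without repeats within a cycle, array noise and short-term variation cannot be told apart.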

Other observations

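Genes that scattered around their daily curve like the mean of the 8 genes were not all interferon genes. The 5 highest correlations of residuals over 24 arrays were those of Serp1, a protein of the secretory pathway (r = 0.81), Sytl2, a vesicle-docking protein (0.81), Foxc2, a transcription factor of mesenchyme (0.81), Phldb2, a cortical scaffold protein (0.78), and the interferon-induced Samd9l (0.78). Of these only Samd9l was called for the 24-h rhythm in the limma fit (adjusted p = 0.0227). The others had adjusted p between 0.219 and 0.434.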
